A study of Arabidopsis thaliana with 9 samples.

Results

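The 50 probe sets described here were higher in leaves of cat2-2 atrbohF plants than in cat2-2 leaves, while their means in cat2-2 atrbohD leaves stayed within a small margin above cat2-2 or under it. They are 50 of 22746 probe sets on the array, where a probe set is a group of short probes that reads 1 transcript or a few similar ones. They were chosen by their measured log2 values. Each had a mean of at least 5.5 in cat2-2 atrbohF, a mean at least 0.7 above that of cat2-2 and all 3 cat2-2 atrbohF arrays above all 3 cat2-2 arrays, while the cat2-2 atrbohD mean lay less than 0.25 above that of cat2-2. The differences between the genotypes are therefore given below as a description. Calls from a fit over all tested probe sets are shown beside some of them. Since the rule used the same values, nothing is read from the calls of members.

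The 9 arrays comprised 3 per genotype, namely cat2-2 atrbohF, cat2-2 atrbohD and cat2-2, all in the Columbia-0 ecotype. All 3 genotypes carry the loss of the catalase CAT2, and since wild-type plants were not analysed here, the cat2-2 values are those of a catalase mutant. Each array held RNA from a separate pool of leaves of at least 8 plants, 3 weeks old, kept at 200 µmol per square metre and second of light for 16 h a day and at 65% humidity. The genotype field of the labels names the lines cat2 rbohF, cat2 rbohD and cat2, and the names used here are those of the sample titles; each genotype is given as 1 line.

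CAT2 is the main leaf catalase and removes hydrogen peroxide made in photorespiration. RBOHF and RBOHD are NADPH oxidases of the plasma membrane, which release superoxide outside the cell, where it turns into hydrogen peroxide that acts as a signal in defence, in the abscisic acid response and in growth. The probe annotation gave 1 gene for 25 of the 50 members, several genes for 3 and none for 22, and the members without 1 gene are called by their probe set ID. Replicates 2 and 3 of cat2-2 atrbohD each correlated best with an array of another genotype. Over all tested probe sets replicate 3 correlated at 0.983 to 0.988 with the cat2-2 atrbohF arrays. With the other cat2-2 atrbohD arrays it correlated at 0.977 and 0.983. Replicate 2 correlated at 0.988 to 0.991 with the cat2-2 arrays and at 0.987 and 0.983 with the other cat2-2 atrbohD arrays.

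**Figure D1:**
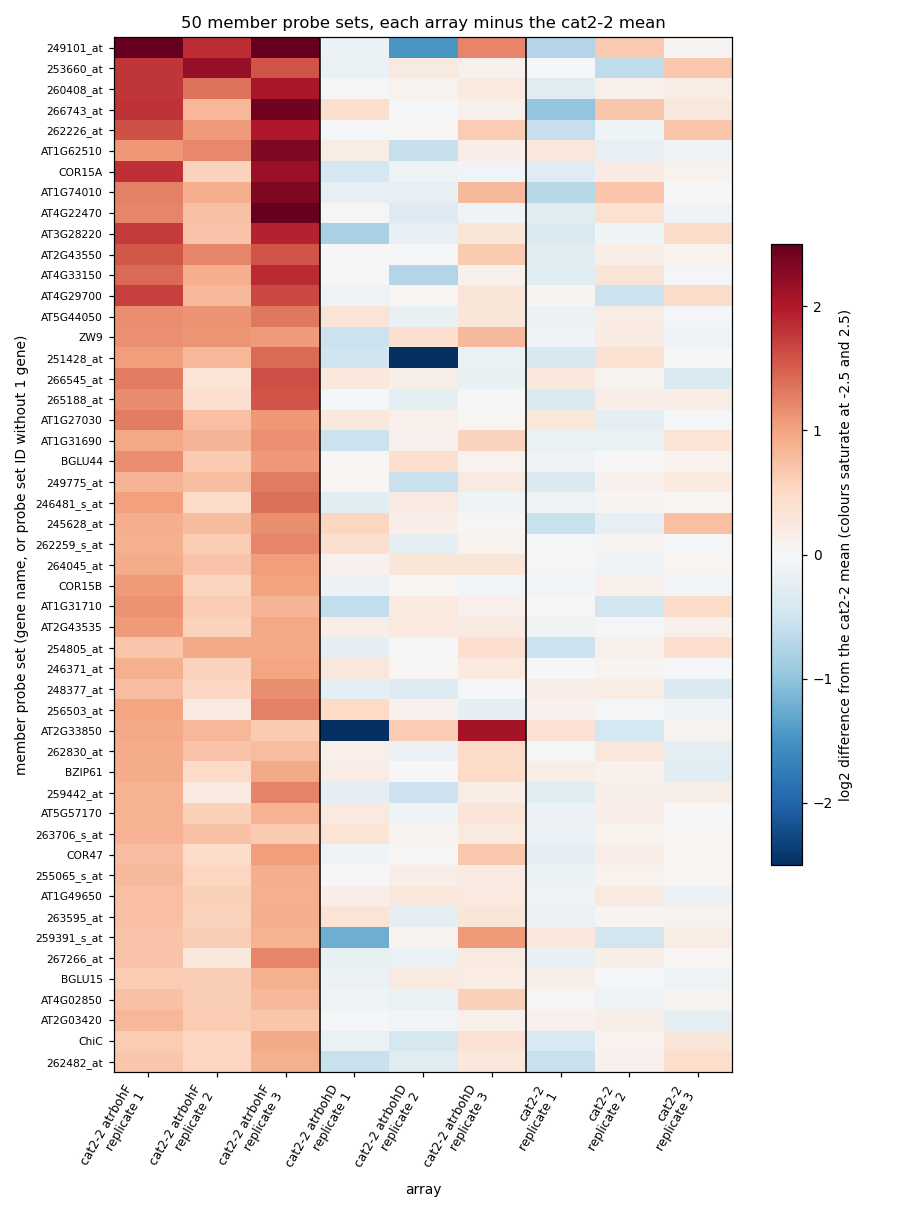
Each row is 1 of the 50 members, sorted by cat2-2 atrbohF minus cat2-2, and each column is 1 array; the colour gives the log2 value minus the cat2-2 mean of that row. The 3 cat2-2 atrbohF columns are red throughout, as the rule requires, and AT2G33850 stands out with a blue and a red cell among the cat2-2 atrbohD arrays.

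Genes of the cold response were among the members. COR15A and COR15B, small proteins of the chloroplast that accumulate in the cold and protect membranes against freezing, are neighbours in the genome. COR15A was measured at 8.79, 7.54 and 9.12 in cat2-2 atrbohF, 6.53, 6.85 and 6.89 in cat2-2 atrbohD, and 6.66, 7.18 and 7.06 in cat2-2. COR15B was measured at 6.87, 6.36 and 6.81 in cat2-2 atrbohF, 5.66, 5.85 and 5.73 in cat2-2 atrbohD, and 5.74, 5.93 and 5.74 in cat2-2. In both genes the cat2-2 atrbohD and cat2-2 arrays overlapped, and cat2-2 atrbohF replicate 2 was the lowest of its genotype. The dehydrin gene COR47, also a member, was less separate, at 10.01, 9.69 and 10.29 in cat2-2 atrbohF, 9.14, 9.26 and 9.91 in cat2-2 atrbohD, and 9.01, 9.41 and 9.29 in cat2-2. Its cat2-2 atrbohD replicate 3 lay above cat2-2 atrbohF replicate 2. The log2 differences from cat2-2 in cat2-2 atrbohF were 1.52 ± 0.34 for COR15A, 0.88 ± 0.13 for COR15B and 0.76 ± 0.21 for COR47 (SE, n = 3 arrays per genotype, here and below, with the spread taken from all 9 arrays).

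Of the 14 cold response genes on a list by locus code, 4 could be tested, and all 4 were called higher in cat2-2 atrbohF against cat2-2 (limma adjusted p under 0.05). Over all 13888 tested probe sets 6.47% were called higher and 9.89% lower in that comparison. The list was drawn up with earlier results of these data known and 3 of the 4 are members, so the count is no independent evidence. The count also rested on single arrays. It was 1 of 4 without cat2-2 atrbohF replicate 1 or 3 or without cat2-2 replicate 1, and 2 of 4 without cat2-2 replicate 3 or without the filter on dim probe sets. COR15B alone was called under each of the alternatives in which it was tested. The other one, the dehydrin gene LTI30, had 8.7, 7.23 and 9.03 in cat2-2 atrbohF, 6.3, 6.68 and 7.03 in cat2-2 atrbohD, and 6.19, 7.57 and 6.37 in cat2-2 (limma adjusted p = 0.0476, and 0.0726 with the replicate number as a block). It was not a member because its cat2-2 atrbohF replicate 2 did not lie above every cat2-2 array.

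AT1G62510 and AT4G22470 belong to the family of lipid-transfer proteins, protease inhibitors and seed albumins, small secreted proteins held by disulphide bonds. AT1G62510 was at 6.97, 7.08 and 8.21 in cat2-2 atrbohF, 6.07, 5.31 and 6.05 in cat2-2 atrbohD, and 6.17, 5.69 and 5.8 in cat2-2. AT4G22470 was at 6.06, 5.58 and 7.35 in cat2-2 atrbohF, 4.86, 4.51 and 4.76 in cat2-2 atrbohD, and 4.56, 5.22 and 4.73 in cat2-2. In both, replicate 3 was the highest cat2-2 atrbohF array, and all of its arrays lay above those of the other genotypes. The mean of AT4G22470 in cat2-2, 4.84, lay under 5.14, the value that had to be exceeded on 3 arrays for a probe set to be tested. The difference of cat2-2 atrbohF from cat2-2, 1.49 ± 0.38, is therefore taken from a signal near background in cat2-2.

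**Figure D2:**
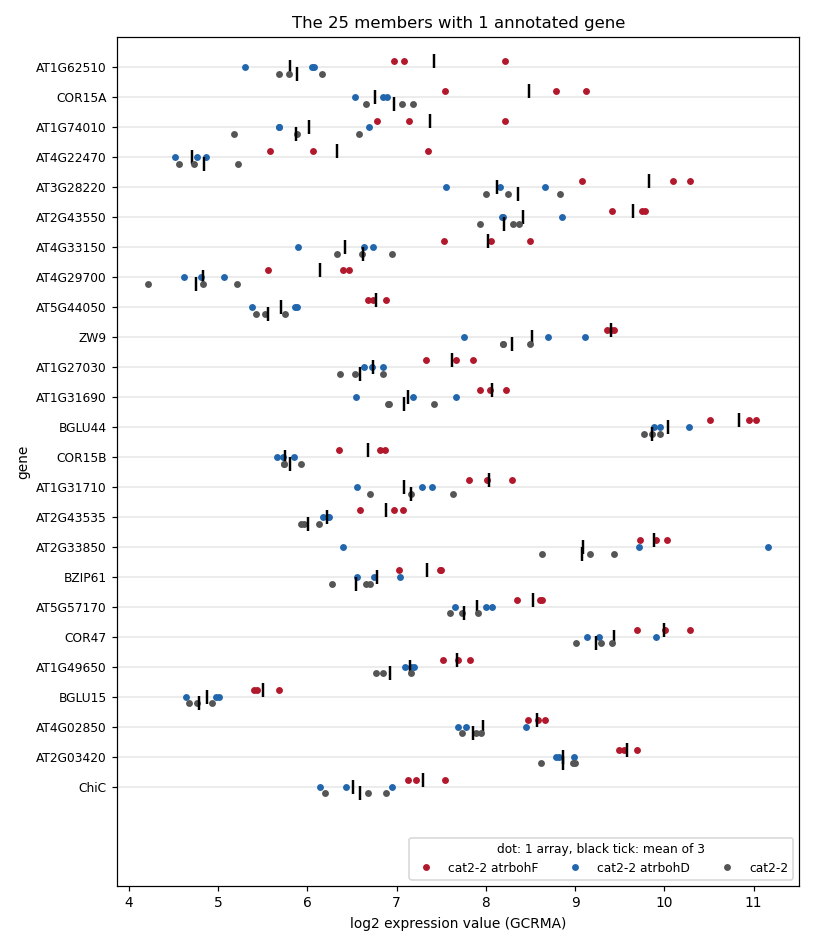
The log2 expression value (GCRMA) of the 25 members with 1 annotated gene, with 1 dot per array in each genotype and a black tick at the mean of 3 arrays. The cat2-2 atrbohD and cat2-2 dots lie among each other in most rows, and AT2G33850 spreads from 6.39 to 11.16 within cat2-2 atrbohD.

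A pair of members encodes small disulphide-rich proteins of the knottin type, to which plant defensins and some trypsin inhibitors belong. AT2G43550 was at 9.75, 9.42 and 9.78 in cat2-2 atrbohF, 8.2, 8.18 and 8.86 in cat2-2 atrbohD, and 7.94, 8.37 and 8.3 in cat2-2. AT2G43535, with 1 protein-coding gene between it and AT2G43550, was at 7.07, 6.59 and 6.97 in cat2-2 atrbohF, 6.17, 6.25 and 6.23 in cat2-2 atrbohD, and 5.92, 5.97 and 6.13 in cat2-2. The log2 differences of cat2-2 atrbohF from cat2-2 were 1.44 ± 0.19 and 0.87 ± 0.12. The gene between them, AT2G43540, was at 6.88 in cat2-2 atrbohF, 6.96 in cat2-2 atrbohD and 6.85 in cat2-2 and was not called. On the outer side of AT2G43535, AT2G43530 averaged 10.31, 9.81 and 9.8 in the same order, and this was not called either (limma adjusted p = 0.172). On the outer side of AT2G43550, AT2G43560 averaged 10.8, 10.61 and 10.5 in the same order and was called higher, by 0.3 (limma adjusted p = 0.0449).

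Another neighbouring pair, AT1G31690 and AT1G31710, encodes copper amine oxidases, enzymes that break down polyamines and other amines and release hydrogen peroxide. AT1G31690 was at 8.04, 7.94 and 8.22 in cat2-2 atrbohF, 6.55, 7.18 and 7.66 in cat2-2 atrbohD, and 6.91, 6.91 and 7.42 in cat2-2. AT1G31710 was at 8.29, 7.81 and 8.01 in cat2-2 atrbohF, 6.55, 7.4 and 7.29 in cat2-2 atrbohD, and 7.17, 6.7 and 7.63 in cat2-2. The lowest value of each was in cat2-2 atrbohD replicate 1. The log2 differences of cat2-2 atrbohF from cat2-2 were 0.99 ± 0.25 for AT1G31690 and 0.87 ± 0.27 for AT1G31710, which was not called (limma adjusted p = 0.0528). Each gene has another probe set on the array, and both of those were too dim to be tested, with values from 3.94 to 4.96 over the 9 arrays and differences between cat2-2 atrbohF and cat2-2 of 0.42 and 0.16.

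These pairs are 3 in all among the 25 members with 1 gene when at most 2 protein-coding genes may lie between the partners, with COR15A and COR15B counted in. Of the 3 probe sets given several genes, 2 also belong together, since all 4 of their genes lie within 1 short stretch of chromosome 1. Probe set 262226_at was at 7.21, 6.69 and 7.62 in cat2-2 atrbohF, 5.59, 5.64 and 6.25 in cat2-2 atrbohD, and 5.03, 5.52 and 6.31 in cat2-2. Probe set 262259_s_at was at 8.44, 8.17 and 8.76 in cat2-2 atrbohF, 7.94, 7.32 and 7.64 in cat2-2 atrbohD, and 7.51, 7.6 and 7.51 in cat2-2. Of the tested probe sets directly beside the member genes, 4 are themselves members, namely COR15A, COR15B, AT1G31690 and AT1G31710. Of the 13 others, 1 was called higher (6.47% of all tested probe sets) and 1 lower (9.89%). Their median difference was 0.06, against 0.01 over all tested probe sets. Leaving out the members takes away neighbours that rose, so whether neighbours share the difference cannot be read from this count. The member genes lay on chromosomes 1 to 5 in numbers of 8, 7, 3, 5 and 2. Chromosome 2 held 28% of the member genes, the pairs COR15A with COR15B and AT2G43550 with AT2G43535 among them, and 14.3% of the tested probe sets with 1 gene.

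Both members of the TRAF-like family, proteins with a MATH domain used in protein contacts, were among the brighter ones. AT3G28220 was at 10.1, 9.08 and 10.29 in cat2-2 atrbohF, 7.56, 8.16 and 8.66 in cat2-2 atrbohD, and 8.0, 8.25 and 8.83 in cat2-2. ZW9 was at 9.44, 9.4 and 9.36 in cat2-2 atrbohF, 7.75, 8.7 and 9.11 in cat2-2 atrbohD, and 8.2, 8.49 and 8.19 in cat2-2. ZW9 hardly varied among the cat2-2 atrbohF arrays (SD 0.04) but did so in cat2-2 atrbohD (SD 0.69), where replicate 3 came close to the cat2-2 atrbohF level and replicate 1 lay below all cat2-2 arrays.

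Several members are enzymes of metabolism. AT4G33150 encodes LKR/SDH, which carries out the opening steps of lysine breakdown, and was at 8.05, 7.53 and 8.49 in cat2-2 atrbohF, 6.63, 5.89 and 6.73 in cat2-2 atrbohD, and 6.33, 6.95 and 6.61 in cat2-2. AT4G29700, of a family of nucleotide pyrophosphatases and phosphodiesterases, was at 6.46, 5.56 and 6.4 in cat2-2 atrbohF, 4.62, 4.81 and 5.06 in cat2-2 atrbohD, and 4.83, 4.22 and 5.21 in cat2-2. Its mean in cat2-2, 4.75, again lay under 5.14. AT1G74010, a strictosidine synthase-like gene, was at 7.14, 6.78 and 8.21 in cat2-2 atrbohF, 5.68, 5.68 and 6.69 in cat2-2 atrbohD, and 5.18, 6.57 and 5.88 in cat2-2, so that cat2-2 atrbohD replicate 3 lay within 0.1 of the lowest cat2-2 atrbohF array. The carboxylesterase-like gene AT1G49650 was at 7.68, 7.52 and 7.82 in cat2-2 atrbohF, 7.09, 7.19 and 7.16 in cat2-2 atrbohD, and 6.85, 7.16 and 6.77 in cat2-2. AT4G02850, of a family related to bacterial phenazine biosynthesis proteins, was at 8.58, 8.47 and 8.66 in cat2-2 atrbohF, 7.78, 7.69 and 8.45 in cat2-2 atrbohD, and 7.89, 7.73 and 7.95 in cat2-2. Differences of cat2-2 atrbohF from cat2-2 in these 5 genes were 1.4 ± 0.28, 1.39 ± 0.28, 1.5 ± 0.44, 0.75 ± 0.11 and 0.72 ± 0.18 in the order named.

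Among genes of sugar-linked hydrolysis, the beta-glucosidase genes BGLU44 and BGLU15 and the class V chitinase gene ChiC were members. BGLU44 was at 11.03, 10.51 and 10.95 in cat2-2 atrbohF, 9.89, 10.28 and 9.95 in cat2-2 atrbohD, and 9.77, 9.86 and 9.95 in cat2-2. BGLU15, whose product removes glucose from flavonol glycosides, was at 5.43, 5.4 and 5.68 in cat2-2 atrbohF, 4.63, 5.01 and 4.98 in cat2-2 atrbohD, and 4.93, 4.76 and 4.67 in cat2-2, and its cat2-2 mean of 4.79 lay under 5.14. ChiC was at 7.22, 7.12 and 7.54 in cat2-2 atrbohF, 6.43, 6.14 and 6.95 in cat2-2 atrbohD, and 6.2, 6.68 and 6.88 in cat2-2. In each of the 3 genes all cat2-2 atrbohF arrays lay above all cat2-2 atrbohD arrays. Of 9 tested genes with a BGLU symbol, 2 were called higher in cat2-2 atrbohF against cat2-2 (6.47% of all tested probe sets). These are the members BGLU44 and BGLU15 themselves. The rule chose both by this same comparison, so nothing is read from the count. BGLU15 was also tested only through its cat2-2 atrbohF arrays, since all its other values lay under 5.14. Of the other 7 BGLU genes none was called higher, except 1 with only the 6 arrays compared or without cat2-2 atrbohD replicate 3. PYK10, a beta-glucosidase gene without a BGLU symbol, is not in this count. It was called higher (1.35), with 0.39 in cat2-2 atrbohD minus cat2-2. BGLU45 (-0.58) was called lower (9.89% of all tested probe sets). This call was lost without the filter on dim probe sets, with the replicate number as a block, and on leaving out any 1 of 4 arrays.

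The transporter gene AT5G44050, of the MATE family that exports small molecules, was at 6.73, 6.68 and 6.88 in cat2-2 atrbohF, 5.89, 5.38 and 5.86 in cat2-2 atrbohD, and 5.42, 5.75 and 5.52 in cat2-2, and the difference of cat2-2 atrbohF from cat2-2 was 1.2 ± 0.14. AT5G57170, a plant relative of the animal cytokine MIF, was at 8.62, 8.35 and 8.61 in cat2-2 atrbohF, 8.0, 7.65 and 8.07 in cat2-2 atrbohD, and 7.6, 7.91 and 7.74 in cat2-2. The transcription factor gene BZIP61 was at 7.48, 7.02 and 7.5 in cat2-2 atrbohF, 6.74, 6.55 and 7.03 in cat2-2 atrbohD, and 6.7, 6.66 and 6.28 in cat2-2, with cat2-2 atrbohD replicate 3 just above the lowest cat2-2 atrbohF array. For 2 further genes no role is given here. AT1G27030 was at 7.86, 7.33 and 7.67 in cat2-2 atrbohF, 6.85, 6.72 and 6.64 in cat2-2 atrbohD, and 6.85, 6.37 and 6.54 in cat2-2. AT2G03420 was at 9.69, 9.49 and 9.55 in cat2-2 atrbohF, 8.82, 8.79 and 8.98 in cat2-2 atrbohD, and 8.98, 9.0 and 8.61 in cat2-2. Both were clear of the other genotypes on every cat2-2 atrbohF array.

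AT2G33850, an E6-like gene, was the member with the widest spread. It was at 10.03, 9.9 and 9.73 in cat2-2 atrbohF, 6.39, 9.72 and 11.16 in cat2-2 atrbohD, and 9.44, 8.63 and 9.16 in cat2-2. The cat2-2 atrbohD arrays thus lay both far below and above the other 6 arrays, and the 95% interval of cat2-2 atrbohD minus cat2-2 ran from -2.07 to 2.1. Probe set 259391_s_at ran in the same order in cat2-2 atrbohD, at 8.55, 8.46 and 8.71 in cat2-2 atrbohF, 6.62, 7.93 and 8.89 in cat2-2 atrbohD, and 8.1, 7.38 and 8.02 in cat2-2. Without cat2-2 atrbohD replicate 1, the AT2G33850 difference of cat2-2 atrbohF from cat2-2 atrbohD was -0.55, against 0.8 on all arrays.

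The 4 largest differences were in probe sets that the annotation does not list. Probe set 249101_at was at 9.13, 8.4 and 9.32 in cat2-2 atrbohF, 6.41, 5.11 and 7.78 in cat2-2 atrbohD, and 5.83, 7.22 and 6.62 in cat2-2, which is a 5.26-fold difference of cat2-2 atrbohF over cat2-2. Probe set 253660_at was at 7.26, 7.65 and 7.04 in cat2-2 atrbohF, 5.3, 5.7 and 5.57 in cat2-2 atrbohD, and 5.44, 4.82 and 6.14 in cat2-2. Probe set 260408_at was at 6.5, 6.08 and 6.76 in cat2-2 atrbohF, 4.66, 4.8 and 4.97 in cat2-2 atrbohD, and 4.4, 4.84 and 4.9 in cat2-2. The cat2-2 mean of the last one, 4.71, lay under 5.14. Probe set 266743_at was at 8.46, 7.48 and 9.06 in cat2-2 atrbohF, 7.08, 6.61 and 6.76 in cat2-2 atrbohD, and 5.67, 7.35 and 6.93 in cat2-2, and cat2-2 replicate 2 came close to cat2-2 atrbohF replicate 2. Probe set 251428_at was at 8.65, 8.44 and 9.03 in cat2-2 atrbohF, 7.11, 5.08 and 7.45 in cat2-2 atrbohD, and 7.21, 8.0 and 7.62 in cat2-2. Its difference of cat2-2 atrbohD from cat2-2 was the lowest of all members, at -1.06, and replicate 2 was the lowest array.

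Over all 50 members, the mean in cat2-2 atrbohF was 5.5 to 11.28, in cat2-2 atrbohD 4.71 to 10.66 and in cat2-2 4.71 to 10.53. Their median difference of cat2-2 atrbohF from cat2-2 was 0.91 and 19 differed at least 2-fold. The median of cat2-2 atrbohD minus cat2-2 was 0.08, with 32 members above 0 and 18 below. Probe set 246481_s_at, which the annotation gives 2 neighbouring genes of chromosome 5, was at 10.29, 9.73 and 10.64 in cat2-2 atrbohF, 8.99, 9.47 and 9.15 in cat2-2 atrbohD, and 9.14, 9.33 and 9.3 in cat2-2. Probe sets of the kind that match several similar transcripts (IDs ending in s_at) made up 5 of the 50 members, 10%, against 3.33% of all tested probe sets.

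All 50 members passed the filter on dim probe sets, 4 of them through the cat2-2 atrbohF arrays alone, so passing it is no separate result. In the fit across all tested probe sets 41 of the 50 were called higher in cat2-2 atrbohF against cat2-2, where the background was 6.47%, and none was called in cat2-2 atrbohD against cat2-2, where it was 0.209% in either direction (limma adjusted p under 0.05; 1 member at an unadjusted p under 0.05). Both comparisons were used by the rule and share the 3 cat2-2 arrays, so nothing is read from these counts. The 41 became 19 without cat2-2 atrbohF replicate 1, 23 without its replicate 3 and 27 without cat2-2 replicate 1. In the fit on all arrays, the members with 1 gene that were not called were AT1G31710, AT2G33850 and ChiC.

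Against cat2-2 atrbohD, all 3 cat2-2 atrbohF arrays lay above all 3 at 45 of the 50 members, and at 12.5% of all tested probe sets. The fit called 22 members higher in cat2-2 atrbohF, with a background of 0.864% (limma adjusted p under 0.05). The rule also bounds this difference, which was 0.53 or more at every member, so this too is a description. The count of 22 depended on single arrays. It was 41 without cat2-2 atrbohD replicate 3, 0 without cat2-2 atrbohD replicate 1 or 2 or cat2-2 atrbohF replicate 1, 1 without cat2-2 atrbohF replicate 3, and 5 to 10 without any 1 cat2-2 array. With only the 6 arrays compared, it was 0.

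Whether the members are higher only without RBOHF is less certain than the means show. The 95% interval of cat2-2 atrbohD minus cat2-2 reached 0.25 or more at 47 of the 50 members and 0.7 or more at 12. It stayed under 0.25 at COR15B and at probe sets 248377_at and 251428_at. For 16 members the difference itself was 0.15 or more. Just inside the limit lay 245628_at (0.243), 264045_at (0.240) and BZIP61 (0.229), and just outside it AT2G15960 (0.252), 251227_at (0.255) and AT1G22570 (0.260). On the rise over cat2-2, the members nearest to 0.7 were 262482_at (0.702), ChiC (0.708) and AT2G03420 (0.713), and those just under it were 260551_at (0.698), EXPB3 (0.697) and AT1G65900 (0.697).

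**Figure D3:**
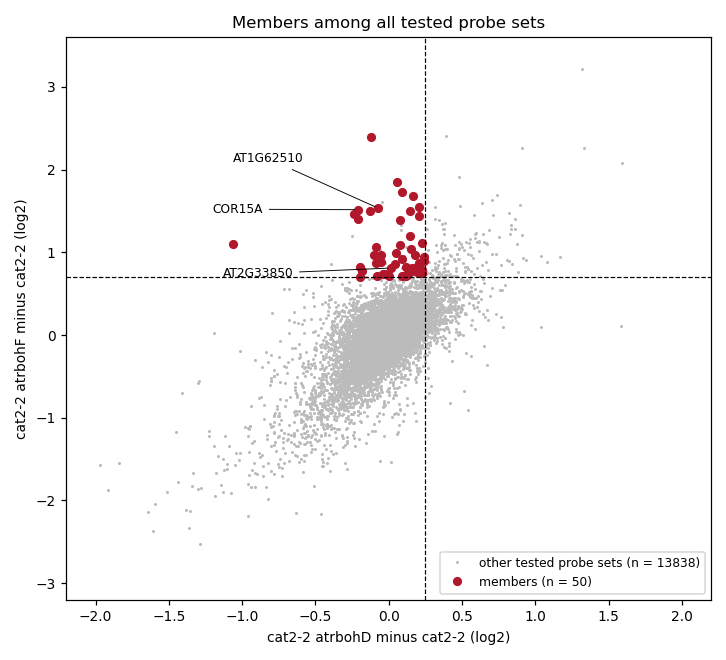
Each dot is 1 tested probe set, with cat2-2 atrbohD minus cat2-2 on the x axis and cat2-2 atrbohF minus cat2-2 on the y axis (log2), and dashed lines at 0.25 and 0.7; 3 probe sets lie outside the axes. Both axes subtract the same 3 cat2-2 arrays, and the members sit above and left of the lines with no gap between them and their neighbours to the right.

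Apart from the limit on cat2-2 atrbohD, 184 probe sets met the rule, and 134 of them were at 0.25 or more in cat2-2 atrbohD minus cat2-2. Of these 134, 52 were under 0.4 and 26 were at 0.7 or more, so the members lie at 1 end of a continuous range. The 134 had a median of 0.97 in cat2-2 atrbohF minus cat2-2 and of 0.47 in cat2-2 atrbohD minus cat2-2. Another 12 probe sets met every condition except that the 3 arrays of each genotype overlapped.

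**Figure D4:**
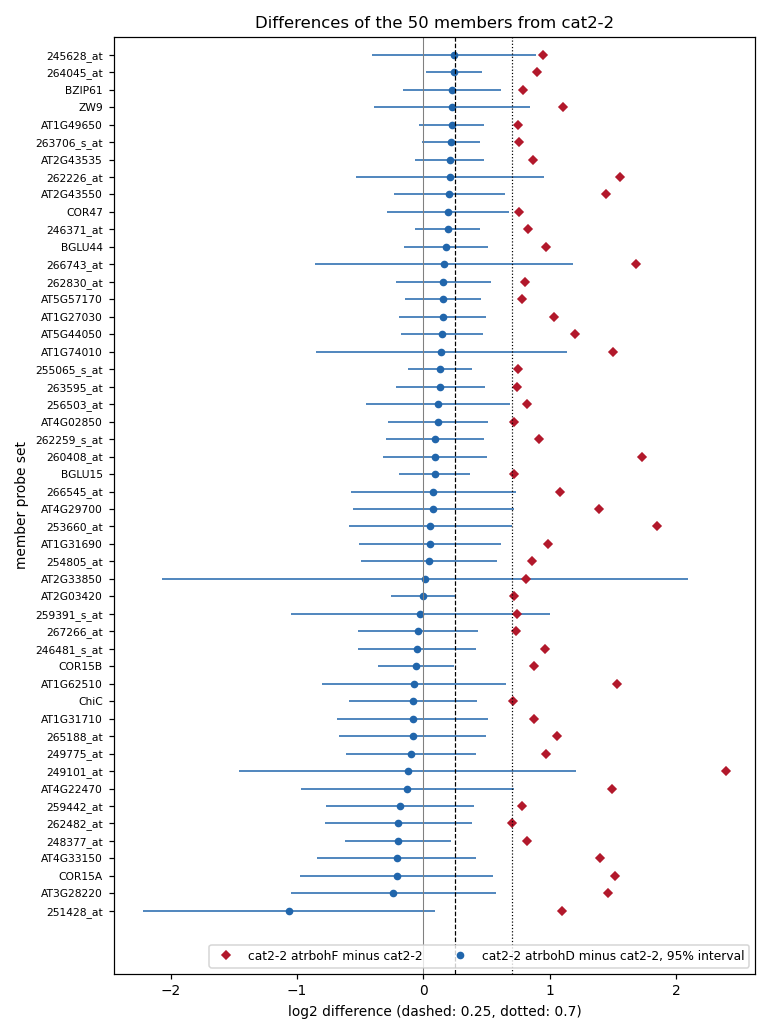
The log2 difference from cat2-2 of each of the 50 members, in cat2-2 atrbohF (diamonds) and in cat2-2 atrbohD (dots with the 95% interval of the limma fit), sorted by the dots. The intervals of 47 members cross the dashed line at 0.25, and that of AT2G33850 is the widest.

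The rule set no condition on the spread among arrays of 1 genotype, apart from requiring that cat2-2 atrbohF and cat2-2 arrays not overlap. Its limits are on means of these same arrays, which more variable probe sets can pass more easily. The spread is therefore not independent of the rule. The spread was larger in the members than over all tested probe sets. The median SD was 0.27 in cat2-2 atrbohF, 0.28 in cat2-2 atrbohD and 0.26 in cat2-2, against 0.1, 0.13 and 0.11 over all tested probe sets. A larger spread was not particular to the members. In the 134 probe sets that only the limit on cat2-2 atrbohD kept out, the median SDs were 0.19, 0.3 and 0.2 in the same order. Replicate 2 was the lowest cat2-2 atrbohF array at 44 of 50 members, 88%, and at 39.4% of all tested probe sets. It lay at least 1 below the mean of the other cat2-2 atrbohF arrays at 5 members, namely COR15A, AT4G22470, AT3G28220, 266743_at and 266545_at, which is 10%, against 0.108% of all tested probe sets. Among the cat2-2 arrays, replicate 1 was the lowest at 29 members, 58%, and at 31.5% of all tested probe sets.

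In cat2-2 atrbohD, replicate 3 was the highest array at 30 members, 60%, and at 36.4% of all tested probe sets. Among the 134 probe sets that only the limit on cat2-2 atrbohD kept out, cat2-2 atrbohF replicate 2 was the lowest at 82.8% and cat2-2 atrbohD replicate 3 the highest at 52.2%. Among the members, cat2-2 atrbohD replicate 3 lay above all 3 cat2-2 arrays at 27 members, while replicates 1 and 2 did so at 10 and 9. The median of the members above the cat2-2 mean was -0.03, -0.01 and 0.23 in cat2-2 atrbohD replicates 1, 2 and 3. In cat2-2 atrbohF it was 0.97, 0.65 and 1.15. In 7 members cat2-2 atrbohD replicate 3 lay at least 1 above replicate 1, namely AT2G33850, 259391_s_at, 249101_at, ZW9, AT1G31690, AT3G28220 and AT1G74010, which is 14%, against 1.53% of all tested probe sets.

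**Figure D5:**
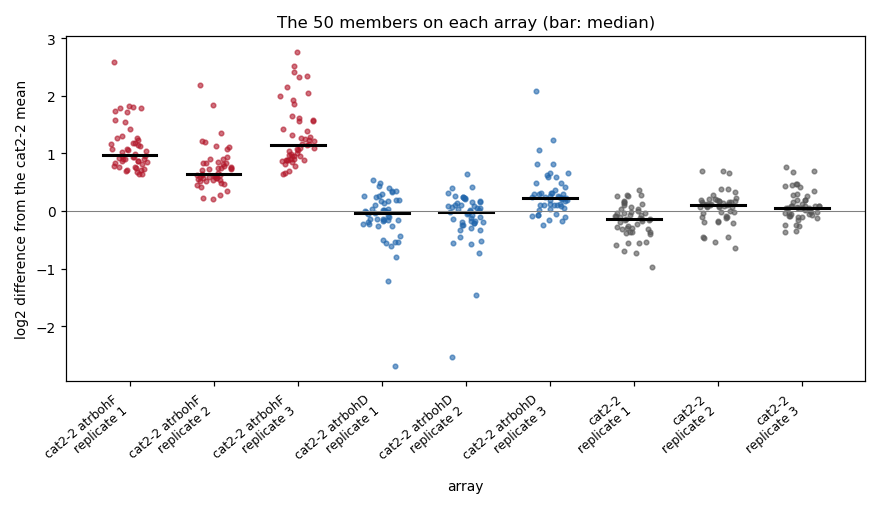
The 50 members on each array, as log2 value minus the cat2-2 mean, with 1 dot per member and a bar at the median. The medians are 0.97, 0.65 and 1.15 on the cat2-2 atrbohF arrays and -0.03, -0.01 and 0.23 on the cat2-2 atrbohD arrays, where replicate 3 is the highest.

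The rule was also applied without cat2-2 atrbohD replicate 3, which gave 85 probe sets, 48 of the 50 among them. Without cat2-2 atrbohF replicate 2 it gave 109, with all 50 among them. Leaving out each other array gave 38 to 64. Under 11 settings (each array left out and 2 other scalings of the arrays) 13 members met the rule every time. Of the genes named above these were AT1G62510, COR15A, AT4G22470, AT3G28220, AT4G33150 and COR15B, and the other 7 were 260408_at, 251428_at, 266545_at, 265188_at, 249775_at, 246481_s_at and 262259_s_at.

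To read the rule on arrays that it had not used, it was applied to 2 replicate numbers of each genotype and the remaining number was then read. Each reading rests on 1 held-out array per genotype, and the probe sets read on it are not replicates. The shares over all tested probe sets are not matched for spread, so the counts are a description. The probe sets chosen in this way are not the 50 members. Of the 53, 88 and 67 chosen with replicates 1, 2 and 3 held out, 32, 34 and 33 are among the 50. With replicate 1 held out, 53 probe sets were chosen, and cat2-2 atrbohF lay above cat2-2 on the held-out arrays at 52 of them, with a median difference of 1.15. With replicate 2 held out, this was 85 of 88, with a median of 0.48. With replicate 3 held out, it was 66 of 67, with a median of 0.99. Over all tested probe sets cat2-2 atrbohF lay above cat2-2 at 49.7%, 50.1% and 48.9% on these arrays. On the arrays that chose them, the medians were 0.91, 0.91 and 0.88. The held-out difference was 0.7 or more at 45 of 53, 30 of 88 and 46 of 67.

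The cat2-2 atrbohD arrays were read in the same way. On the held-out arrays cat2-2 atrbohD lay above cat2-2 at 36 of 53, 44 of 88 and 52 of 67 probe sets chosen, for replicates 1, 2 and 3, with medians of 0.3, -0.000165 and 0.28. Over all tested probe sets these shares were 47.4%, 49.8% and 48.0%. In the same order, cat2-2 atrbohF lay above cat2-2 atrbohD at 53 of 53, 85 of 88 and 53 of 67. The 2 differences from cat2-2 share the held-out cat2-2 array, and the arrays were normalized together by the authors.

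The 24 lists of loci held 203 loci, of which 35 had a tested probe set with 1 gene, and members were on the cold response list alone. The lists were drawn up with earlier results of these data known, so their counts are no independent evidence. Over all tested probe sets 6.47% were called higher in cat2-2 atrbohF against cat2-2. Of 5 tested genes of sugar transport and sugar starvation, 3 were called higher in that comparison. These were SAG29 (1.59), SWEET16 (0.92) and SWEET17 (0.63), which code for sugar transporters. Their cat2-2 atrbohD minus cat2-2 differences were 0.64, 0.48 and 0.28, all over the limit of 0.25. Of 4 anthocyanin genes, DFR (1.27) and UF3GT (0.84) were called higher, with 0.68 and 0.64 in cat2-2 atrbohD. Of 3 genes of aliphatic glucosinolate synthesis, BCAT4 (1.12) and AT2G31790 (0.48) were called higher, with 0.6 and 0.08 in cat2-2 atrbohD. In the salicylic acid list 3 of 4 and in the oxidative stress list 3 of 3 were called lower (9.89% of all tested probe sets) and none higher. Among them were WRKY53 (-1.98), a transcription factor of the salicylic acid response, and STZ (-1.25), a zinc finger factor of stress responses. Both also had lower means in cat2-2 atrbohD than in cat2-2, by -0.82 and -0.5, and were not called there. The clock gene GI (0.47) and the starch branching enzyme gene SBE2.2 (0.31) were called higher, with 0.19 and 0.12 in cat2-2 atrbohD, both under 0.25. The defensin gene PDF1.2 of the jasmonate list (-1.55) was called lower, and its fall was larger in cat2-2 atrbohD (-1.84, not called). None of 3 photosynthesis genes was called. Most of these counts fell when 1 cat2-2 atrbohF or cat2-2 array was left out. The lowest were 1 higher for the sugar and the glucosinolate list, 0 higher for the anthocyanin, starch and clock lists, 2 lower for the salicylic acid list and 0 lower for the oxidative stress and jasmonate lists. Some counts also moved under other alternatives. The anthocyanin count was 0 without the filter on dim probe sets and 1 with a robust variance prior or only the 6 arrays compared. It was 3 after either other scaling or with array weights. The oxidative stress count was 2 lower without the filter or after centring arrays on their medians. SBE2.2 lost its call with the replicate number as a block.

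In these bulk samples, fewer cells of a type and less RNA per cell cannot be told apart. Of 3 root markers only PYK10 was tested, and it was called higher in cat2-2 atrbohF, at 9.17, 8.71 and 9.01 in cat2-2 atrbohF, 8.11, 7.83 and 8.07 in cat2-2 atrbohD, and 8.11, 6.96 and 7.78 in cat2-2. Of 4 leaf mesophyll markers RCA, the activase of Rubisco, was tested, at 14.16, 14.15 and 14.13 on average in cat2-2 atrbohF, cat2-2 atrbohD and cat2-2. Both tested guard cell markers of 4, FMA and AT1G22690, were not called, with differences of 0.15 and -0.1 between cat2-2 atrbohF and cat2-2. No marker of flowers, vasculature, epidermis, dividing cells or seeds and none of the NADPH oxidases and catalases had a tested probe set with 1 gene, so the labels could not be checked through these. The signal of GAPDH at the 3' over the 5' end, which reads RNA quality, was 0.91 ± 0.07 in cat2-2 atrbohF, 0.86 ± 0.08 in cat2-2 atrbohD and 0.75 ± 0.06 in cat2-2 (log2, SD, n = 3), while a second GAPDH pair gave -0.22 ± 0.05, -0.13 ± 0.05 and -0.03 ± 0.11 in the same order. The other 4 pairs did not share the order of the first one, with means of 2.47, 2.56 and 2.6 and of 1.27, 1.43 and 1.24 for actin, and of 1.29, 1.25 and 1.33 and of -0.09, -0.09 and -0.05 for ubiquitin. The part of PYK10-expressing cells or of RNA quality in the members' differences was not tested.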

How the data were processed

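Leaf RNA was hybridised to 9 Affymetrix arrays, 1 per pool of plants. Each probe set has a log2 value deposited by the authors, and the submitters' processing notes name GCRMA, without a version. GCRMA brings all arrays to 1 distribution, which hides any shift common to most genes. Depth does not apply to arrays, and their number limits the precision.

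From these values 64 control probe sets were left out, and 13888 of 22746 probe sets were tested, those whose third-highest value exceeded 5.14 (the 40th percentile). A linear model with 1 mean per genotype was fitted in limma 3.58.1 under R 4.3.3 (two-sided, moderated by eBayes), with Benjamini-Hochberg adjustment over all tested probe sets, and was tested on simulated data. Symbols were updated through the RefSeq gene table of TAIR10.1, used only for names and gene order, which matched all 25 member genes.

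The members and lists were chosen with earlier results of these data known. Named are all members with 1 gene, the 5 members without 1 gene that had the largest differences, neighbouring genes, those next to the limits, and up to 4 called genes per list. Other members were named after their values were seen. Same-numbered cat2-2 atrbohF and cat2-2 arrays deviated from their genotype means together (r of 0.14 to 0.17 over probe sets), and the replicate number as a block was tried. Alternatives were other filters, scalings, variance priors, array weights, the 6 arrays compared alone, and arrays left out.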

Additional observations from a re-analysis of the deposited data

How the results depend on the processing

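The 50 members became 59 after quantile normalization again and 58 after centring arrays on their medians, with 47 and 45 of the 50 among them. They were 19 with a rise of at least 1, 18 with cat2-2 atrbohD below cat2-2, 38 to 109 without single arrays and 53 to 88 without 1 replicate number of every genotype (added after seeing the data). Members called in cat2-2 atrbohF against cat2-2 numbered 19 to 46 without single arrays, 41 on all, and 30 to 47 under the other alternatives. Against cat2-2 atrbohD they numbered 0 to 41 without single arrays, 0 with only the 6 arrays compared and 34 with array weights. With the replicate block, whose numbers are not shown to pair cat2-2 atrbohD with the others, the counts of members were 44 and 25. The AT2G33850 difference between cat2-2 atrbohF and cat2-2 atrbohD ranged from -0.55 to 1.83 without single arrays, the lowest without cat2-2 atrbohD replicate 1 and the highest without its replicate 3. Over the alternatives, the 25 members with 1 gene lost the call of cat2-2 atrbohF against cat2-2 in 43 cases, gained it in 15 and stayed on the same side in 385. Against cat2-2 atrbohD they lost it in 102, gained it in 24 and stayed in 316. The counts of list genes under each alternative were added after seeing the data.

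Over all probe sets, those called in cat2-2 atrbohF against cat2-2 numbered 2273, and 817 to 2704 without single arrays (817 without cat2-2 atrbohF replicate 1, 1099 without its replicate 3, 1080 without cat2-2 replicate 2 and 1404 without its replicate 3). In cat2-2 atrbohD against cat2-2 there were 29, with 12 under the stricter filter, 15 with only the 6 arrays compared, 18 with array weights, 54 with the replicate block and 7 to 35 without single arrays (7 without cat2-2 atrbohD replicate 1 or cat2-2 replicate 2 or 3). In cat2-2 atrbohF against cat2-2 atrbohD there were 267, with 164 unfiltered, 455 under the stricter filter, 2 with only the 6 arrays compared, 703 with array weights and 1 to 1065 without single arrays (1065 without cat2-2 atrbohD replicate 3, 1 to 107 without each other array except cat2-2 atrbohF replicate 2). The causes were not tested. The promoter alternative was not run, since no promoter sequence was used here. Dim signals, under 5.14, limit 5 members whose cat2-2 mean lies there.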
